A study of Homo sapiens with 6 samples.

Results

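The genes coding for subunits of the nuclear RNA polymerases were followed in Raji cells treated with bryostatin-1. Members were the protein-coding rows of the gene table whose symbol begins with POLR1, POLR2 or POLR3 followed by a letter. This gave 31 of 58735 rows and 30 symbols, because POLR2J3 stands under 2 gene identifiers. Of these, 28 averaged 1 FPKM or more across all 6 libraries (fragments scaled to gene length in kilobases and to library size) and were tested in a fit of 11071 genes. POLR2J2 and both rows of POLR2J3 were below that level.

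Raji is an established B cell line from a Burkitt lymphoma. All 6 libraries came from the GFP-ffluc genotype, by its name a green fluorescent protein and firefly luciferase reporter, so treated and control cells carried it alike. The treated group was given 1 nM bryostatin-1, an activator of protein kinase C, overnight, and the control group was given DMSO, with 3 libraries in each. Polyadenylated RNA was sequenced. Nothing in the labels ties the replicates to separate cultures, so p-values measure the spread between these libraries, which may be technical, and the cells are 1 line at 1 dose and 1 time. In RNA from whole cultures, fewer cells of a kind and less RNA per cell cannot be told apart.

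RNA polymerase I makes the large ribosomal RNA precursor, polymerase II makes messenger RNA, and polymerase III makes transfer RNA, 5S ribosomal RNA and other short RNAs. In each enzyme the pair of largest subunits forms the catalytic cleft, around which smaller subunits sit. A few of the small subunits are common to all of the enzymes, some are common to polymerases I and III, and the others belong to 1 enzyme.

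Reads assigned to genes ranged from 19405370 to 24468270 per library. The 6 B cell markers were all at 1 FPKM or more, with a summed level of 921 to 1458 FPKM in the DMSO libraries and 988 to 1370 in the bryostatin libraries. Of the T cell markers 1 of 6 reached 1 FPKM, none of 5 myeloid, 3 erythroid and 3 fibroblast markers did, and all 3 erythroid markers were at 0. In limma's moderated test on log2(FPKM + 1), no gene passed an adjusted p of 0.05 (0 of 11071, 0%), and the smallest adjusted p was 0.121. The unadjusted limma p was below 0.05 for 1954 genes (17.6%), of which 1159 were higher with bryostatin (10.5%) and 795 were lower (7.18%). Log2 changes below are bryostatin minus DMSO on the log2(FPKM + 1) scale, which understates the change of low genes.

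Several small subunits stood higher after bryostatin, while the catalytic subunits hardly differed between the groups. POLR2L, POLR2F, POLR2H and POLR2K, 4 of the 5 subunits common to polymerases I, II and III, were higher in every bryostatin library than in any DMSO library, by 1.29-fold to 1.73-fold on the log2(FPKM + 1) scale. POLR3K, POLR2G and POLR2C, small subunits of polymerase III or II, did the same by 1.21-fold to 1.39-fold. The catalytic subunits POLR1A, POLR1B, POLR2A, POLR2B, POLR3A and POLR3B had log2 changes between -0.06 and 0.06, and in each of them the groups overlapped. None of the 28 passed an adjusted p of 0.05 in limma. Over the 28 tested members, 25 had a higher mean with bryostatin (89.3%, against 53.9% of all genes tested). Of the 28, 13 were higher in every bryostatin library (46.4%, against 12.9%) and 8 were higher at an unadjusted p under 0.05 in limma (28.6%, against 10.5%). All genes tested are not matched to the members in length, which went with the difference, as described below. A single member, POLR1D, was lower in every bryostatin library (10.7% of all genes were), and none was lower at an unadjusted p under 0.05. Without DMSO replicate 1 the unadjusted limma p of POLR2K and POLR2C was above 0.05, and that of POLR2C was also above it without bryostatin replicate 1. The median log2 change was 0.15 over the members and 0.02 over all genes tested.

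**Figure D1:**
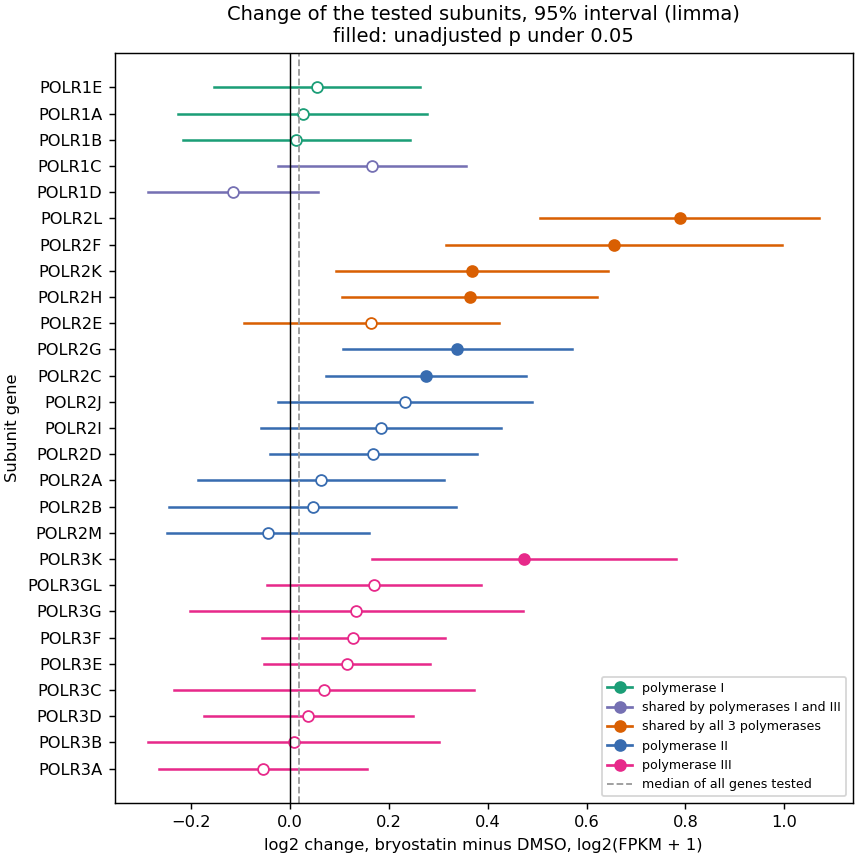
Log2 change (bryostatin minus DMSO, log2(FPKM + 1) scale) of 27 of the 28 tested subunits, each with its 95% interval from limma, grouped by the enzyme it belongs to. POLR2L (0.79) and POLR2F (0.66) lie farthest to the right, and the intervals of the catalytic subunits lie across 0.

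POLR2L is the small zinc-binding subunit known as RPABC5, common to all of the enzymes. It had the highest mean level of all members, 59.3 FPKM over the 6 libraries. Its gene (ENSG00000177700) lies on the minus strand of chromosome 11 at 837356 to 842545 in hg38. It stood at 42.0, 46.9 and 40.4 FPKM in the DMSO libraries and at 81.2, 80.9 and 64.3 FPKM in the bryostatin libraries. The groups did not overlap, and the lowest bryostatin library was well above the highest DMSO library. These are 43.1 ± 3.39 and 75.5 ± 9.64 FPKM (SD, n = 3), from 925 to 1848 reads per library. The log2 change was 0.79 with a standard error of 0.120 and an adjusted p of 0.216 in limma. Without DMSO replicate 3 the adjusted p was 0.0493 in limma and the log2 change 0.74, and 267 of all genes then passed instead of 0. CD151, on the opposite strand, shares 22.5% of the exon bases of POLR2L, and the strand setting of the read counting is not given in the sources used here. CD151 stood at 9.25 ± 1.37 FPKM in DMSO and 12.5 ± 1.82 in bryostatin (SD, n = 3), higher in every bryostatin library, and its part in the POLR2L value was not tested.

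POLR2F, the common subunit RPABC2, is coded on chromosome 22 at 37952607 to 38041915. It stood at 5.43, 6.04 and 5.13 FPKM in the DMSO libraries and at 11.7, 8.78 and 7.74 FPKM in the bryostatin libraries. All 3 bryostatin libraries were above all 3 DMSO libraries, the first of them most. The means were 5.53 ± 0.466 and 9.40 ± 2.05 FPKM (SD, n = 3). The log2 change was 0.66 with a standard error of 0.144 and an adjusted p of 0.216 in limma. POLR2F had the lowest FPKM of the common subunits, over a gene length of 7042 bases. Its mean of 1095 reads per library was above the 907.5 of POLR2K.

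POLR2H, the common subunit RPABC3, is coded on chromosome 3 at 184361718 to 184368596. It stood at 16.2, 19.4 and 18.9 FPKM in the DMSO libraries and at 26.5, 21.8 and 22.7 FPKM in the bryostatin libraries. The groups lay apart, with a log2 change of 0.36 and an adjusted p of 0.221 in limma. POLR2K, the common zinc-binding subunit RPABC4, stood at 20.8, 21.0 and 24.0 FPKM in the DMSO libraries and at 33.2, 26.8 and 26.1 FPKM in the bryostatin libraries. These groups also lay apart, with a log2 change of 0.37 and an adjusted p of 0.227 in limma. POLR2E, the common subunit RPABC1, stood at 37.9, 37.7 and 41.2 FPKM in the DMSO libraries and at 47.7, 46.2 and 37.8 FPKM in the bryostatin libraries. Its groups overlapped, because bryostatin replicate 3 lay within the DMSO range, and the log2 change was 0.16 (95% interval -0.09 to 0.42, adjusted p 0.443 in limma). Over the 5 common subunits the median log2 change was 0.37, and 4 of them (80.0%) were at an unadjusted p under 0.05 in limma, against 10.5% of all genes tested. All 5 fall in the shortest of 5 equal bins of protein-coding genes by coding length, where 22.1% were higher at that p.

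**Figure D2:**
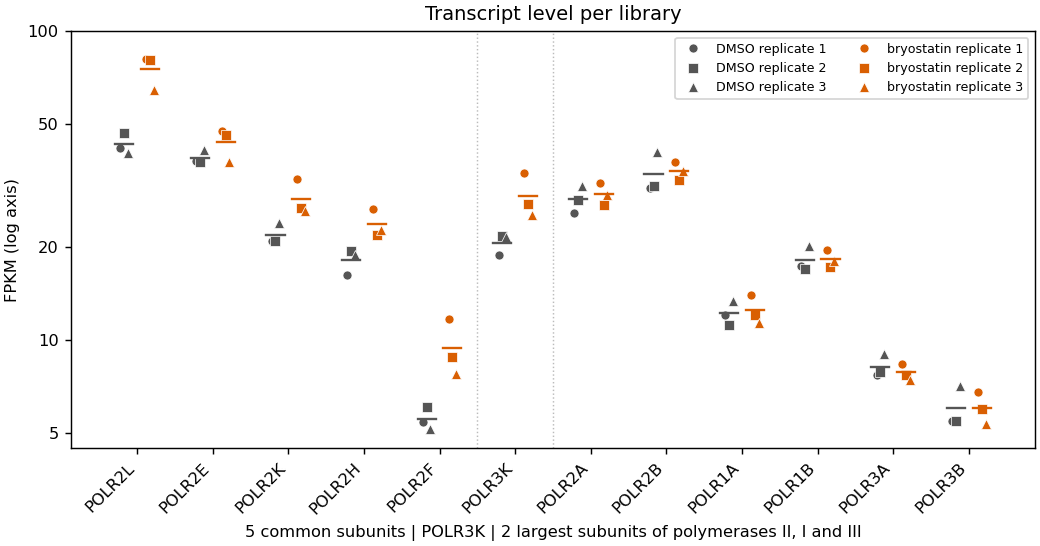
FPKM (log axis) of the 5 common subunits, POLR3K and the 6 catalytic subunits, with 1 point for each of the 3 DMSO (grey) and 3 bryostatin (orange) libraries and a line at each group mean. The 3 bryostatin points of POLR2L (64.3 to 81.2 FPKM) lie above its 3 DMSO points (40.4 to 46.9 FPKM), while those of POLR2A mix.

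Promoter sequence was read for the subunits with the largest differences between the groups and, for contrast, for the catalytic subunit POLR2A. RefSeq promoter windows on GRCh38.p14, 300 bases from 250 before to 50 after each gene's start, matched 21 of the 30 symbols with 27 windows. Symbols with no window were, among others, POLR1E, POLR2G, POLR2I, POLR2J, POLR2J3, POLR2K, POLR3D and POLR3G. The 250 bases before the start follow, 5′ to 3′ on the gene's own strand, with CCGGAA and CCAAT, or either's reverse complement, in capitals. They are POLR2L at chr11:842530-842779 (minus strand), POLR2F at chr22:37953449-37953698 (plus), POLR2H at chr3:184361460-184361709 (plus), POLR3K at chr16:53609-53858 (minus) and POLR2A at chr17:7484116-7484365 (plus).
POLR2L: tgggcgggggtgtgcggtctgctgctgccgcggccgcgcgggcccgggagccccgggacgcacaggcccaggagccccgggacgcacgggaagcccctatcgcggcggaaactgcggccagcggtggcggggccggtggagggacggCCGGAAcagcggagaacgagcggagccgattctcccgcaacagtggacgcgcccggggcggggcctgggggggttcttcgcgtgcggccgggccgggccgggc
POLR2F: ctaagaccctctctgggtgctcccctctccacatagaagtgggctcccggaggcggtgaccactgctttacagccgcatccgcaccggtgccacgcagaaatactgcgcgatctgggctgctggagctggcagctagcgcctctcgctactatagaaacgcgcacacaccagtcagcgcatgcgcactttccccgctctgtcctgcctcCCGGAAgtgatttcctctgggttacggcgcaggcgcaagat
POLR2H: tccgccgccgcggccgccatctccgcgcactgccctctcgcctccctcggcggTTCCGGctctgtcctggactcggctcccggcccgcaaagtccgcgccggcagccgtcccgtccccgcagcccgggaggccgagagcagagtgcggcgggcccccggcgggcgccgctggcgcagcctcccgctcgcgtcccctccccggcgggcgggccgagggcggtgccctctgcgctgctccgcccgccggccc
POLR3K: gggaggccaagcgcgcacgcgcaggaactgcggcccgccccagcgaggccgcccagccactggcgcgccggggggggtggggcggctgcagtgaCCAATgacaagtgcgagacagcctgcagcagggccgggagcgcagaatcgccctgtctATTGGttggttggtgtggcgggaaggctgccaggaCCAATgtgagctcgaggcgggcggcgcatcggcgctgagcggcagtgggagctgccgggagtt
POLR2A: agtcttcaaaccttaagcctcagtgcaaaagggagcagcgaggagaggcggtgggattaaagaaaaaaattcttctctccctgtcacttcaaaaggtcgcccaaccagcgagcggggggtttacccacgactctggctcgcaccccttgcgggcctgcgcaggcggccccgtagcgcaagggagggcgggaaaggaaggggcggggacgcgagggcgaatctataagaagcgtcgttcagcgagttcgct

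In the bases printed, POLR2L, POLR2F and POLR2H each held 1 CCGGAA, the core that ETS-family factors recognise. The other window of POLR2H, at chr3:184363111-184363410, held none. POLR3K held no CCGGAA and 3 copies of CCAAT, the letters read by NF-Y, and POLR2A held neither. The 6 spellings below were searched on both strands of the whole 300-base windows, and none of them contains another. CCGGAA was in 14 of the 27 member windows (51.9%) and in 17.2% of all 35116 windows. GGGCGG, read by SP-family factors, was in 21 member windows (77.8%) and in 45% of all. TGCGCA was in 7 (25.9%) and 8.24%, CCAAT in 5 (18.5%) and 34.6%, CACGTG, the E-box read by MYC and MAX, in 3 (11.1%) and 7.26%, and TATAAA in 1 (3.70%) and 11.5%. Some genes have several windows that share bases. A match describes the letters only. CCGGAA was also in the windows of POLR1B and POLR3A, whose groups overlapped.

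Of the subunits common to polymerases I and III, POLR1C stood at 4.99, 5.58 and 4.84 FPKM in the DMSO libraries and at 6.06, 5.66 and 5.91 FPKM in the bryostatin libraries. The bryostatin libraries were all higher, by a log2 change of 0.17 (adjusted p 0.325 in limma). Genes on the opposite strand share 18.2% of the exon bases of POLR1C, and their part in its value was not tested. POLR1D stood at 16.3, 15.6 and 15.8 FPKM in the DMSO libraries and at 14.3, 15.1 and 14.5 FPKM in the bryostatin libraries. It was the member whose bryostatin libraries were all lower, by a log2 change of -0.12 (adjusted p 0.421 in limma). POLR1C and POLR1D pair with each other in the assembly platform of both enzymes.

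Among the subunits specific to polymerase I, the 3 under POLR1 symbols had log2 changes of 0.01 to 0.05. POLR1A, its largest catalytic subunit, stood at 12.1, 11.2 and 13.4 FPKM in the DMSO libraries and at 14.0, 12.02 and 11.3 FPKM in the bryostatin libraries. POLR1B, the second catalytic subunit, stood at 17.4, 16.9 and 20.2 FPKM in the DMSO libraries and at 19.6, 17.2 and 18.1 FPKM in the bryostatin libraries. In both genes the groups overlapped and the log2 change was 0.02 or less (95% intervals -0.23 to 0.28 and -0.22 to 0.24). POLR1E, which pairs on the enzyme with the subunit coded by CD3EAP, stood at 27.7, 26.9 and 31.3 FPKM in DMSO and 30.7, 28.9 and 29.5 FPKM in bryostatin, with a log2 change of 0.05. Of the 3 none was at an unadjusted p under 0.05 in limma, and their median log2 change of 0.02 took the opposite sign when values were scaled to TPM (-0.022) or quantile normalised (-0.039).

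In polymerase II, POLR2A, the largest subunit with the C-terminal repeat domain, stood at 25.7, 28.4 and 31.4 FPKM in the DMSO libraries and at 32.3, 27.4 and 29.5 FPKM in the bryostatin libraries. POLR2B, the second catalytic subunit, stood at 31.2, 31.4 and 40.5 FPKM in the DMSO libraries and at 37.7, 32.9 and 35.3 FPKM in the bryostatin libraries. In both the groups overlapped, with log2 changes of 0.06 (95% interval -0.19 to 0.31) and 0.05 (-0.24 to 0.33), and both became negative after quantile normalisation. The intervals leave room for log2 differences as far up as 0.33 and as far down as -0.24. Their ratio within a library, POLR2B to POLR2A in FPKM, was 1.203 ± 0.092 in DMSO and 1.19 ± 0.017 in bryostatin (SD, n = 3).

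POLR2G, which forms the stalk of polymerase II, stood at 18.8, 23.4 and 20.02 FPKM in the DMSO libraries and at 27.0, 26.4 and 25.8 FPKM in the bryostatin libraries. Every bryostatin library was higher and those 3 lay close together, with a log2 change of 0.34 (adjusted p 0.217 in limma). POLR2C, a subunit of the assembly platform, stood at 10.8, 12.4 and 11.0 FPKM in the DMSO libraries and at 14.8, 13.6 and 13.6 FPKM in the bryostatin libraries. These groups also lay apart, with a log2 change of 0.27 (adjusted p 0.227 in limma). POLR2D, the stalk partner of POLR2G, stood at 21.3, 19.1 and 21.7 FPKM in DMSO and 24.5, 23.8 and 21.9 FPKM in bryostatin. Its groups lay apart by a narrow margin, with a log2 change of 0.17 (adjusted p 0.353 in limma). POLR2J, the platform partner of POLR2C, stood at 15.6, 15.5 and 16.5 FPKM in DMSO and 21.9, 18.0 and 16.8 FPKM in bryostatin, with a log2 change of 0.23 (adjusted p 0.316 in limma).

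The near-identical copies of POLR2J were low. POLR2J2 stood at 0.472, 0.486 and 0.508 FPKM in DMSO and 0.562, 0.605 and 0.965 FPKM in bryostatin. The rows of POLR2J3 were at or below 1.17 FPKM in every library. Reads of these copies may have been split or dropped in counting, so their values are uncertain and were not tested. POLR2I, a zinc-binding subunit, had a log2 change of 0.18 with overlapping groups, and 79.6% of its exon bases are shared with other genes, so its level is uncertain as well. POLR2M, a polymerase II associated protein, had a log2 change of -0.04, with overlapping groups. Over the 8 tested polymerase II members the median log2 change was 0.18. Of the 8, 7 had a higher mean (53.9% of all genes tested did), 4 were higher in every bryostatin library (12.9% of all genes) and 2 were higher at an unadjusted p under 0.05 in limma (10.5%).

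In polymerase III, POLR3A, the largest subunit, stood at 7.71, 7.85 and 9.01 FPKM in the DMSO libraries and at 8.38, 7.72 and 7.41 FPKM in the bryostatin libraries. POLR3B, the second catalytic subunit, stood at 5.45, 5.45 and 7.11 FPKM in the DMSO libraries and at 6.77, 5.97 and 5.32 FPKM in the bryostatin libraries. In both the groups overlapped, and the log2 changes were -0.06 and 0.01 (95% intervals -0.27 to 0.16 and -0.29 to 0.30).

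POLR3K, the small zinc-binding subunit that takes part in termination, is coded on chromosome 16 at 46407 to 53628. It stood at 18.8, 21.6 and 21.5 FPKM in the DMSO libraries and at 34.7, 27.6 and 25.3 FPKM in the bryostatin libraries. All bryostatin libraries were higher, with a log2 change of 0.47, a standard error of 0.131 and an adjusted p of 0.217 in limma. SNRNP25, on the opposite strand, shares 8.1% of the exon bases of POLR3K and stood at 12.8 ± 3.17 FPKM in DMSO and 20.5 ± 2.82 in bryostatin (SD, n = 3), also higher in every bryostatin library. Its part in the POLR3K value was not tested.

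The pair POLR3G and POLR3GL are alternative forms of 1 subunit, POLR3G being the form known from undifferentiated and dividing cells. POLR3G stood at 4.09, 4.04 and 6.01 FPKM in DMSO and 5.68, 5.15 and 4.79 FPKM in bryostatin. POLR3GL stood at 6.74, 5.84 and 5.88 FPKM in DMSO and 7.53, 7.17 and 6.44 FPKM in bryostatin. Groups overlapped in both, and the ratio of POLR3GL to POLR3G was 1.36 ± 0.344 in DMSO and 1.35 ± 0.034 in bryostatin (SD, n = 3).

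POLR3E and POLR3F, subunits outside the catalytic core, were higher in every bryostatin library by log2 changes of 0.12 and 0.13 (adjusted p 0.415 in limma for each). POLR3C and POLR3D had log2 changes of 0.07 and 0.04 with overlapping groups. Over the 10 polymerase III members the median log2 change was 0.12. Of the 10, 9 had a higher mean (53.9% of all genes), 4 were higher in every bryostatin library (12.9%) and 2 were higher at an unadjusted p under 0.05 in limma (10.5%).

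The ratio of a small subunit to the catalytic subunit of the same library does not depend on library scaling. It does not remove a difference that goes with gene length, which is described below. POLR2L to POLR2A was 1.63, 1.65 and 1.29 in the DMSO libraries and 2.51, 2.95 and 2.18 in the bryostatin libraries. POLR3K to POLR3A was 2.44, 2.76 and 2.38 in the DMSO libraries and 4.15, 3.58 and 3.41 in the bryostatin libraries. In both pairs every bryostatin ratio was above every DMSO ratio, as it was for POLR2F, POLR2H and POLR2K to POLR2A. For POLR2E to POLR2A, POLR1B to POLR1A and POLR3B to POLR3A the groups overlapped.

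**Figure D3:**
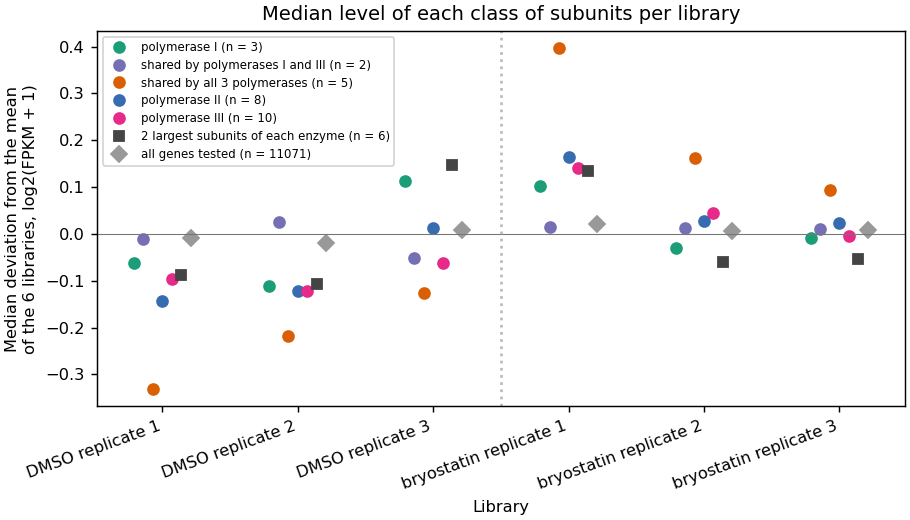
Median deviation from each gene's mean over the 6 libraries (log2 scale) for each class of subunits, with 1 point per library. The 5 common subunits run from -0.33 in DMSO replicate 1 to 0.40 in bryostatin replicate 1, while the median of all tested genes stays between -0.02 and 0.02.

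Library by library, the median deviation of the 5 common subunits from their own means was -0.33, -0.22 and -0.13 in the DMSO libraries and 0.40, 0.16 and 0.09 in the bryostatin libraries. For the 6 catalytic subunits it was -0.09, -0.11 and 0.15 in the DMSO libraries and 0.13, -0.06 and -0.05 in the bryostatin libraries. The common subunits thus separated the groups, with DMSO replicate 1 and bryostatin replicate 1 farthest apart. The catalytic subunits did not separate them, and DMSO replicates 2 and 3 were farthest apart there.

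The difference between the groups went with the length of the gene. Across the 28 tested members, Spearman's rho between log2 change and the deposited gene length was -0.59, and across 23 members without the common subunits it was -0.64. Against the length of the coding sequence (GENCODE 29), which is independent of untranslated sequence, rho was -0.77 over the 27 members with a value. Genes are not independent replicates, and the points share libraries and FPKM scaling, so these values describe the members only. The same direction held across all protein-coding genes tested, with a rho of -0.31 over 9265 genes for gene length and -0.26 over 9257 for coding length.

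Split into 5 bins of equal size by gene length, the protein-coding genes had a median log2 change of 0.12 in the shortest bin and -0.07 in the longest. In the shortest bin 24.0% of genes were higher in every bryostatin library and 22.5% were higher at an unadjusted p under 0.05 in limma, against 4.32% and 2.32% in the longest. The shortest bin held 10 members, all with a higher mean and 4 of them at an unadjusted p under 0.05 (POLR2L, POLR2K, POLR3K and POLR2G), with a median of 0.21. The longest bin held POLR1A, POLR1D, POLR2A, POLR3A and POLR3E, with a median of 0.02. By coding length, 14 of 27 members were in the shortest bin, 7 of them at an unadjusted p under 0.05 (22.1% of all genes there), with a median of 0.28 beside 0.11 for all genes of that bin. POLR2F, the second largest difference, stands in bin 4 by gene length (7042 bases) and in bin 1, the shortest, by coding length (381 bases). POLR1D, also in bin 1 by coding length (399 bases), was the only member there with a lower mean.

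**Figure D4:**
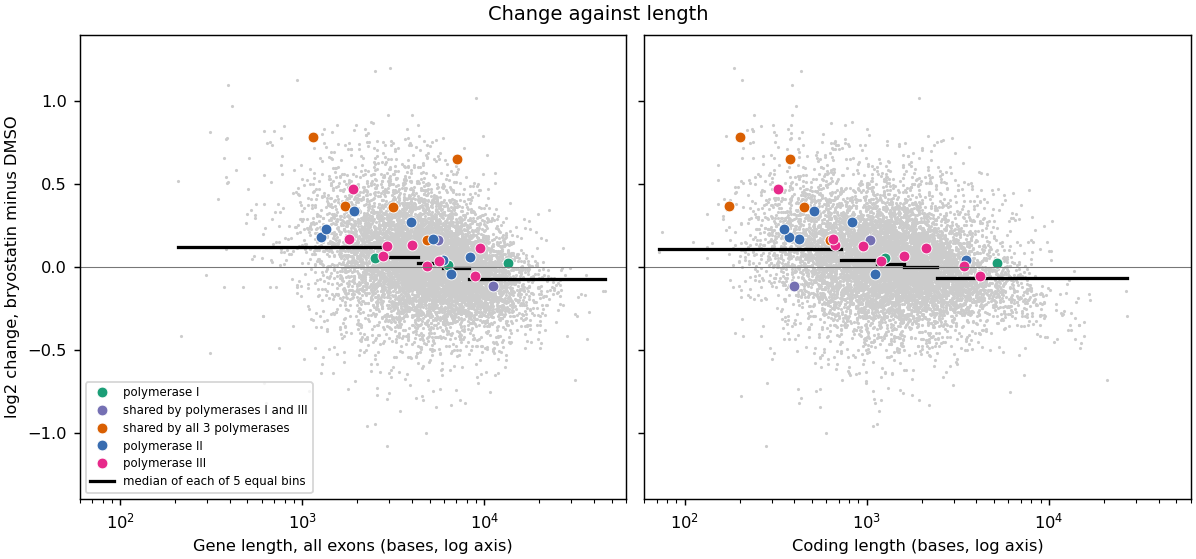
Log2 change of each protein-coding gene tested (grey) and of 27 polymerase subunits (coloured by class) against gene length and coding length in bases, both on log axes, with genes that have no coding length left out of the right panel. POLR2L (201 coding bases) lies above the black median line of its bin, and POLR1D (399 coding bases), in the same coding length bin, lies below it. Long subunits such as POLR1A (5160 coding bases) lie near 0.

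The trend with length was removed from each library by a loess fit. It was fitted over all genes tested for gene length, and over protein-coding genes with a value for coding length. The fit for coding length was chosen after the data were seen. The common subunits then had a median log2 change of 0.30 (gene length) or 0.24 (coding length). The median over all members was 0.11 or 0.08. POLR2L kept 0.70 or 0.55, POLR2F 0.66 or 0.50 and POLR3K 0.38 or 0.30. POLR2K went from 0.37 to 0.27 or 0.11, and members higher in every bryostatin library from 13 to 11 or 7. The number of members at an unadjusted p under 0.05 in limma, in either direction, was 8 under both, and these need not be the same members. POLR2K, lowest with the coding length trend removed (0.11), was at that p in 17 of the 19 alternatives. POLR1D, lower in every bryostatin library, was at that p in 2 of the 19. Its lowest log2 change, -0.26, came with the coding length trend removed.

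Among genes that work with the polymerases, the lists below were counted in the same fit, and none of their genes passed an adjusted p of 0.05 or was lower at an unadjusted p under 0.05 in limma. The counts are to be read against all genes tested, of which 53.9% had a higher mean and 10.5% were higher at an unadjusted p under 0.05 in limma. Of 4 polymerase subunits listed under other symbols all had a higher mean, and 1 was at an unadjusted p under 0.05. That gene was CD3EAP, a polymerase I subunit, at 2.01, 2.01 and 2.40 FPKM in DMSO and 3.53, 3.07 and 2.71 FPKM in bryostatin, with a log2 change of 0.38. TWISTNB and ZNRD1, also subunits of polymerase I and named after their values were seen, had log2 changes of 0.24 and 0.27 with overlapping groups. Of 7 polymerase I factors 6 had a higher mean and 1 was at that p, UBTF, the factor that binds ribosomal DNA, at 41.4 ± 1.99 and 48.6 ± 2.93 FPKM (DMSO and bryostatin, SD, n = 3). Of 17 general factors of polymerase II 15 had a higher mean and 2 were at that p, GTF2A2 with a log2 change of 0.41 and GTF2E1 with 0.22. Of 16 pausing and elongation factors 14 had a higher mean and 2 were at that p, NELFCD (a subunit of the pausing factor NELF) and PAF1, at log2 changes of 0.19 and 0.35. Their group medians lay between 0.08 and 0.26, beside 0.02 for all genes. The shares of the general, pausing and elongation factors at that p were near that of all genes.

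Of 15 polymerase III factors 10 had a higher mean and 3 were at an unadjusted p under 0.05 in limma, with a median log2 change of 0.09. MAF1, the repressor of polymerase III, stood at 53.0 ± 2.23 FPKM in DMSO and 62.1 ± 2.80 in bryostatin (SD, n = 3), and GTF3C5, a subunit of TFIIIC, at 15.8 ± 1.18 and 19.3 ± 1.91. The third, named after its values were seen, was SNAPC5, a subunit of the complex that binds small nuclear RNA promoters, with a log2 change of 0.23 and overlapping groups. Of 9 assembly and import factors 5 had a higher mean and 1 was at that p, both near the shares of all genes (53.9% and 10.5%). It was the prefoldin subunit PFDN2, whose gene length is 677 bases, with a log2 change of 0.51. Of 4 genes of mitochondrial transcription all had a higher mean and 1 was at that p, TFB2M, with a log2 change of 0.44. The median log2 change was 0.05 over the assembly and import factors and 0.15 over the mitochondrial genes. Adjusted p-values of the genes at an unadjusted p under 0.05 in these lists ran from 0.217 to 0.282 in limma.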

How the data were processed

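The deposited values are FPKM per gene, computed by the authors. Per the submitters' processing notes the build was hg38, and HISAT2 2.0.5, featureCounts 1.5.0-p3, CASAVA and DESeq2 1.20.0 were used, with no role for each. No source used here gives the annotation release or the strand setting. Further members share exon bases with other genes, among them POLR3GL (21.2%), POLR2M (21.1%), POLR2B (12.4%) and POLR2D (8.7%). The part of those genes in the values was not tested. FPKM times gene length gave whole reads for 100% of values (within 0.001 reads), from which depth was taken, and 3 reads came to 0.123 to 0.155 CPM. Per the file headers the columns are 3 libraries a group. All 58735 gene coordinates equal those of GENCODE 29, from which coding lengths (principal transcript) were read.

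Genes averaging 1 FPKM or more were fitted as log2(FPKM + 1) in limma 3.58.1 (R 4.3.3, intensity trend), with Benjamini-Hochberg adjustment over all 11071 and a threshold of 0.05. An exact permutation test of 3 against 3 cannot go below 0.1. The fit was tested on simulated data. Named were the catalytic, common and paralogous subunits and members that did not overlap at an unadjusted p under 0.05. In the lists of factors, genes at an unadjusted p under 0.05 with groups that did not overlap were named by rule, and TWISTNB, ZNRD1 and SNAPC5 after their values were seen. A further member enters the fit and the counts but is not reported here. Members and lists were chosen with earlier results of these data known. Length trends were removed by loess (span 0.5). Other pseudocounts, filters, scalings, a replicate block and each library left out were tried.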

Additional observations from a re-analysis of the deposited data

How the results depend on the processing

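Genes passing an adjusted p of 0.05 in limma numbered 0 as reported, 1 with a pseudocount of 0.1 and 1 with TPM, and 0 to 267 when 1 library was left out, 267 without DMSO replicate 3 and 1 without DMSO replicate 2. Genes at an unadjusted p under 0.05 numbered 1954, and 913 to 2861 with 1 library left out. With the replicate block they numbered 1191 and members at that p 7 instead of 8. Same-numbered libraries deviated from their group means with correlations of -0.29, -0.32 and -0.11, so no pairing by number was seen. With 3 libraries a group, each centred on its own mean, these values cannot exclude pairing. Members at an unadjusted p under 0.05 numbered 5 to 10 with 1 library left out, 5 without DMSO replicate 1. POLR2L, POLR2F, POLR2H, POLR2G and POLR3K were at that p in all 19 alternatives, POLR2K in 17 and POLR2C in 16. POLR2L had log2 changes from 0.55 to 0.90.

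Members higher in every bryostatin library numbered 7 with the coding length trend removed, against 13. Spearman's rho of log2 change and gene length over all genes was -0.23, and -0.044 with no filter and -0.0065 with the gene length trend removed. Over the members it was -0.59, and -0.27 or -0.22 with the gene length or coding length trend removed. The polymerase I median was 0.02, and -0.022 with TPM, -0.039 with quantile normalisation and -0.036 to 0.088 with 1 library left out. For the subunits common to I and III the median was 0.03, and -0.014 with TPM, -0.011 with quantile normalisation, 0.052 with the gene length trend removed and -0.065 with the coding length trend removed. The polymerase II median was 0.071 with the coding length trend removed.

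Among single catalytic subunits the sign was not stable. With TPM, POLR1A was at -0.022, POLR1B at -0.035, POLR2B at -0.0024 and POLR3B at -0.039. With quantile normalisation, POLR1A was at -0.030, POLR1B at -0.065, POLR2A at -0.039 and POLR2B at -0.059. With median-of-ratios scaling, POLR1B was at -0.0093 and POLR3B at -0.013, and with voom weights at -0.0065 and -0.0076. POLR3B was at -0.020 with the gene length trend removed. With 1 library left out, POLR1A ran from -0.056 to 0.088, POLR1B from -0.036 to 0.086, POLR2A from -0.0078 to 0.13, POLR2B from -0.018 to 0.17, POLR3A from -0.099 to 0.0077 and POLR3B from -0.069 to 0.12. The cause of these differences was not tested. The median gene moved by 0.02 as reported and by -0.03 with TPM.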

Other observations

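Of 11 rows with polymerase subunit symbols that are not protein-coding, mostly pseudogenes, 8 were at 0 in every library. POLR2J4, a pseudogene near-identical to POLR2J, stood at 2.51, 2.63 and 4.28 FPKM in the DMSO libraries and at 6.15, 5.91 and 4.40 FPKM in the bryostatin libraries, from a mean of 127 reads. Its groups did not overlap, and the log2 change was 0.66 (adjusted p 0.217 in limma), beside 0.23 for POLR2J. Reads of the copies can be exchanged in counting, so the value is uncertain. A second row of POLR2J4, a processed transcript, was at or below 0.128 FPKM in every library.

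Products of polymerase III, chosen after the table was seen, were mostly listed at 0, in libraries made from polyadenylated RNA. RN7SK, RN7SL1, RMRP, RPPH1, RNU6-1, RNY1, RNY3 and VTRNA1-1 were at 0 in every library. Whether these values reflect the RNA sequenced or the counting of reads was not tested. RN7SL2, an RNA of the signal recognition particle, stood at 183, 383 and 39.1 FPKM in the DMSO libraries and at 860, 567 and 295 FPKM in the bryostatin libraries. The groups overlapped, with DMSO replicate 2 above bryostatin replicate 3 (adjusted p 0.282 in limma).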
